A study of Homo sapiens with 48 samples.

Results

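AKAP12, NUAK2, SLFN11, PIK3CD, CPZ and MFAP4 are 6 of the 29744 genes in the table of estimated counts. They were chosen by measured values of these same libraries. Each was lower with a GLIS3 knock-out guide than with a control guide, and higher with a GLIS3 activation guide than with its control, at some time or setting. The rule of that choice names no size or test, and whether one was used is not known. The values of those guide comparisons are therefore given as a description only. Counts of the members called in them are given too, and are no test of the members. The tests below on these genes concern the change with cytokine treatment averaged over both guides of an arm, and how that change differed between the CRISPRko and CRISPRa cells, which the choice did not use.

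The libraries came from IL11mNG fibroblasts, which are immortalized human skin fibroblasts (CRL-4001) grown from sorted single-cell clones that carry the fluorescent reporter mNeonGreen at the end of IL11. In the CRISPRko arm the cells expressed Cas9 and received a non-targeting guide (H47_Ctrl) or a GLIS3 guide (H47_KO), and in the CRISPRa arm the cells expressed dCas9-VP64 and were split into VP64_Ctrl and VP64_A in the same way. Both kinds of cell were kept as bulk populations under drug selection, so not every H47_KO cell needs to carry the same edit. All 4 groups were treated with TGFβ and IL-1β together, at 10 ng/ml, for 0, 6, 12 or 24 h, with 3 libraries for each of the 16 conditions and 48 libraries in all. In the CRISPRa arm the titles and the descriptions of the samples name opposite groups as the control, and the groups are called here by their descriptions. If the titles were right, each CRISPRa guide difference below would change its sign. The cell line entry of all libraries, controls included, reads as a GLIS3 knock-out line. No label says whether the 3 libraries of a condition came from separate cultures, so the errors below measure the spread between libraries, which may be technical.

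GLIS3 is a zinc finger transcription factor of the GLI-similar family that can activate or repress its target genes. TGFβ drives fibroblasts to make and remodel matrix through SMAD proteins, and IL-1β drives inflammatory genes through NF-kB and AP-1. The 6 genes have unlike roles. AKAP12 is a scaffold that holds protein kinase A and protein kinase C near the membrane and the cytoskeleton. NUAK2 is an AMPK-related kinase that promotes actomyosin contraction and is known as a target of YAP and TEAD. SLFN11 binds stalled replication forks and is known as an interferon-stimulated gene. PIK3CD encodes the catalytic p110δ subunit of class I PI 3-kinase, best known from leukocytes. CPZ is a secreted carboxypeptidase that binds Wnt ligands through a frizzled-like domain. MFAP4 is a matrix protein that binds elastic fibres.

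The genes lie apart from each other in GRCh38. AKAP12 spans chr6:151239967-151358559 and NUAK2 spans chr1:205302063-205321745. SLFN11 spans chr17:35350305-35373701 and PIK3CD spans chr1:9629889-9729114. CPZ spans chr4:8592660-8619759 and MFAP4 spans chr17:19383442-19387190. All 6 are annotated as protein-coding.

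Start site windows from RefSeq (GRCh38.p14) were matched for 4 of the 6 members, with several start sites for AKAP12 and for PIK3CD, and CPZ and MFAP4 were not matched. The 250 bases before each start were searched on both strands for the GLIS or GLI-type letters TGGGGGGT and GACCACCCA, the TEAD letters GGAATG, the AP-1 letters TGANTCA, the SMAD letters GTCTAGAC and the NF-kB letters GGGANTTCC. No motif match overlapped another. The TEAD letters were in the NUAK2 window and in 1 window each of AKAP12 and PIK3CD, and in 11.9% of all 35116 windows. That share is per window, and AKAP12 and PIK3CD had several windows each in which a match could fall. No window of these 4 genes held any of the other letters, which were in 1.33%, 0.199%, 6.57%, 0.182% and 1.59% of all windows in the order listed. Windows are shown for these 4 genes because they were the members with a match, with the TEAD letters in capitals. SLFN11 is shown beside the others as the member with no match in any window. The other windows of AKAP12 and PIK3CD also held none and are not shown. The libraries do not tell which start site was used.
AKAP12 (chr6:151325281-151325530, plus strand): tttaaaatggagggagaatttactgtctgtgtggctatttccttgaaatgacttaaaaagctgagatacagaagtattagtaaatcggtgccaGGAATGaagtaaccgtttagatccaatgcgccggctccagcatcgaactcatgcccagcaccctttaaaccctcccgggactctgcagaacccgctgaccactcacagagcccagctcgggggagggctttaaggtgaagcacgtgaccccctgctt
NUAK2 (chr1:205321746-205321995, minus strand): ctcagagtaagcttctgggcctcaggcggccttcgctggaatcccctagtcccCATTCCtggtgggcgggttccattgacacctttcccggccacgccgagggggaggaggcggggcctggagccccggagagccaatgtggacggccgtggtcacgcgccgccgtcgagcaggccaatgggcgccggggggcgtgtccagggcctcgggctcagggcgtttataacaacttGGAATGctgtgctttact
SLFN11 (chr17:35373622-35373871, minus strand): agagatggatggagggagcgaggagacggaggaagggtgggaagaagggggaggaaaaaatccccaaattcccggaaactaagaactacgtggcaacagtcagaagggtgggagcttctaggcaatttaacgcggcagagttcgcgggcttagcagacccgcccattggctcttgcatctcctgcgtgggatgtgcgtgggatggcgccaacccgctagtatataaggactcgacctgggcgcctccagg
PIK3CD (chr1:9691217-9691466, plus strand): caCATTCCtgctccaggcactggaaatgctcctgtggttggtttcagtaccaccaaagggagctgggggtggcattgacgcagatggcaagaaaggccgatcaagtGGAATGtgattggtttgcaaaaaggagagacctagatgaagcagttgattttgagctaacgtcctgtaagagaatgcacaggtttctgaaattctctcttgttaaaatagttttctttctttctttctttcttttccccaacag
In NUAK2 the letters began 197 bases before the start on the antisense strand and 18 bases before it on the sense strand. In PIK3CD they began 248 bases before the start (antisense) and 144 bases before it (sense), in a window inside the span of the gene. In AKAP12 they began 157 bases before the start, also inside the gene's span. A match describes the letters and does not show that a factor bound there.

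The libraries held between 2321990 and 10661004 estimated counts, with a median of 5139646, and 10962 genes passed the filter on low counts for the CRISPRko cells and 10980 for the CRISPRa cells, all 6 members among them. GLIS3 transcript stood at 0.144 to 1.64 CPM (a gene's share of the reads, scaled between libraries) in the 12 H47_KO libraries and at 1.45 to 6.47 in the 12 H47_Ctrl libraries, resting on 1 to 21 and on 6 to 45 counts. It stood at 16.6 to 36.7 CPM in VP64_A and at 1.91 to 6.31 in VP64_Ctrl, so its level goes with the descriptions. Replicate 3 of VP64_Ctrl at 0 h stood apart. Its factor for scaling CPM was the highest, at 1.84, and its 50 largest genes held the lowest share of counts, 23.1%. Its chi-square per degree of freedom was 38.1 and 48.3 against the other replicates, and 9.09 between those. It enters each 0 h value of VP64_Ctrl and each change from 0 h in the CRISPRa arm. Its part there was not tested beyond leaving it out. The 11 fibroblast markers summed to 16000 to 33700 TPM (a gene's share of the transcripts, corrected for length). The 4 endothelial and 3 melanocyte markers summed to at most 0.615 and 0.879 TPM. EPCAM was listed at 0 in all 48 libraries, and the sum of the 6 epithelial markers was mostly KRT18, at 355 to 8230 TPM, with a median sum of 3800 TPM in VP64_A against 1250 in VP64_Ctrl. The 7 leukocyte markers summed to 13.7 to 69.7 TPM, nearly all of it CD68, with CD3E and LYZ listed at 0 in all libraries. The part of these marker differences in the results below was not tested.

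Per unit of length the 6 genes were expressed at very different levels. In H47_Ctrl at 0 h MFAP4 stood at 114 ± 41.4 TPM (SD, n = 3), CPZ at 18.2 ± 5.36, PIK3CD at 6.25 ± 1.00, AKAP12 at 4.16 ± 0.653, SLFN11 at 3.31 ± 0.802 and NUAK2 at 2.94 ± 0.739. MFAP4, CPZ and PIK3CD did not overlap with the gene next in this order, whereas AKAP12 overlapped with SLFN11 and SLFN11 with NUAK2. All values below are normalized CPM, which compare libraries for a gene and not genes with each other. The plot of the 6 genes by library shows that 4 of them rose with cytokines and that CPZ and MFAP4 did not.

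**Figure D1:**
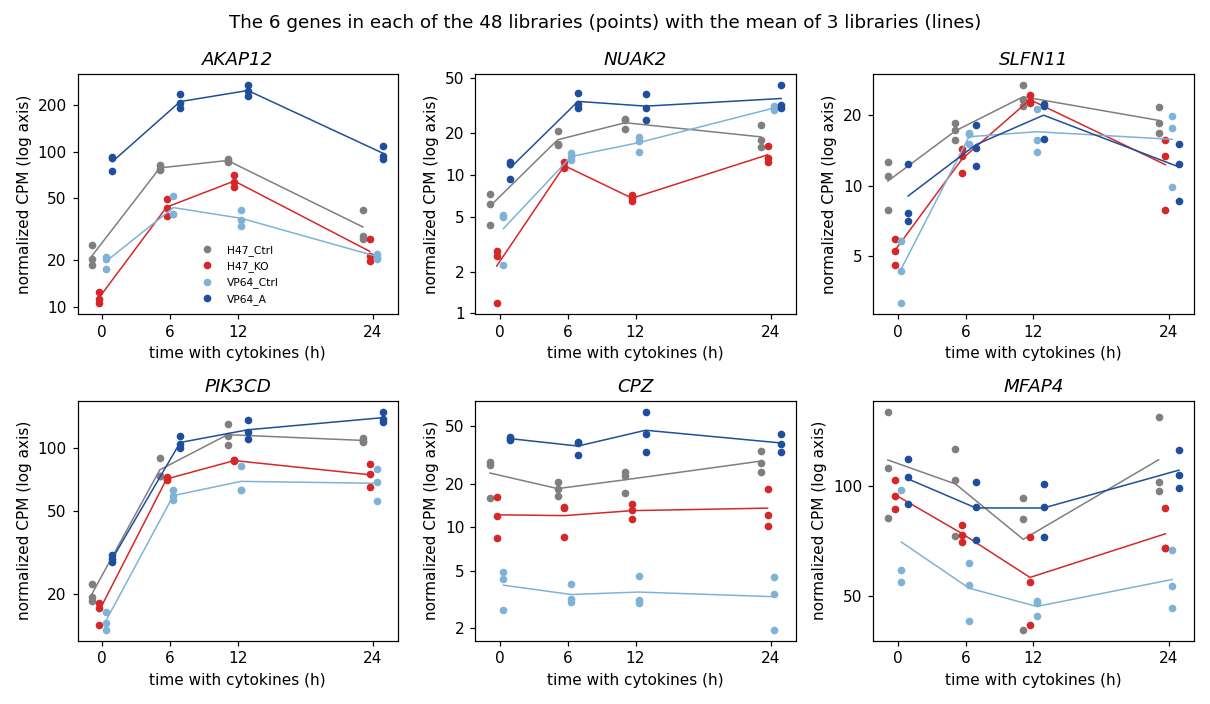
Normalized CPM (log axis) of each gene against time with TGFβ and IL-1β (h), with a point for each of the 48 libraries and a line through the means of 3 libraries. VP64_A points of AKAP12 and CPZ lie above all VP64_Ctrl points, CPZ from 31.7 to 63.1 CPM against 1.94 to 4.89, and PIK3CD starts at 13.4 to 30.7 CPM at 0 h.

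AKAP12 rose by 6 h and had fallen again by 24 h in all 4 groups. In the H47_Ctrl libraries it stood at 20.2, 25.1 and 18.6 CPM at 0 h, 75.8, 82.0 and 77.6 at 6 h, 89.7, 87.3 and 85.6 at 12 h, and 42.1, 28.5 and 27.3 at 24 h. In the H47_KO libraries it stood at 11.1, 10.5 and 12.5 CPM at 0 h, 43.5, 49.6 and 38.4 at 6 h, 63.4, 71.1 and 59.2 at 12 h, and 27.2, 19.7 and 21.3 at 24 h. The H47_KO libraries lay below the H47_Ctrl libraries at each time, narrowly at 24 h. In TPM the groups overlapped at 24 h. The log2 fold change was -0.91 (standard error 0.18) at 0 h, -0.85 (0.16) at 6 h, -0.44 (0.15) at 12 h and -0.53 (0.17) at 24 h. Without replicate 1 of H47_Ctrl at 24 h the last value was -0.28.

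In VP64_Ctrl AKAP12 stood at 17.5, 20.2 and 20.8 CPM at 0 h, 51.6, 39.6 and 39.4 at 6 h, 36.1, 42.1 and 33.2 at 12 h, and 20.4, 21.1 and 21.98 at 24 h. In VP64_A it stood at 75.4, 92.3 and 90.8 CPM at 0 h, 235, 205 and 189 at 6 h, 247, 227 and 268 at 12 h, and 93.7, 89.2 and 109 at 24 h. The groups did not overlap at any time, and the lowest VP64_A library before treatment exceeded the highest VP64_Ctrl library of the whole course, at 51.6 CPM. On the log2 scale the difference was 2.14 (standard error 0.15) at 0 h, 2.25 (0.16) at 6 h, 2.73 (0.16) at 12 h and 2.20 (0.16) at 24 h. In each of the 4 groups the 24 h libraries lay below all 12 h libraries.

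NUAK2 differed with the guide by amounts that varied with time. In H47_Ctrl it stood at 6.21, 4.35 and 7.29 CPM at 0 h, 16.5, 20.7 and 16.7 at 6 h, 21.3, 24.9 and 25.4 at 12 h, and 15.99, 17.8 and 22.8 at 24 h. In H47_KO it stood at 2.83, 2.60 and 1.19 CPM at 0 h, 12.3, 11.4 and 11.3 at 6 h, 6.45, 7.16 and 6.79 at 12 h, and 16.3, 12.4 and 13.2 at 24 h. H47_KO lay below H47_Ctrl at 0, 6 and 12 h and overlapped with it at 24 h, and at 12 h it dipped below its own 6 h and 24 h libraries while H47_Ctrl was at its highest. This gave a log2 fold change of -1.43 (standard error 0.29) at 0 h, -0.62 (0.24) at 6 h, -1.81 (0.24) at 12 h and -0.42 (0.22) at 24 h.

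In VP64_Ctrl NUAK2 stood at 2.23, 5.14 and 4.94 CPM at 0 h, 13.5, 12.9 and 14.5 at 6 h, 18.9, 17.7 and 14.8 at 12 h, and 30.4, 31.8 and 29.5 at 24 h. In VP64_A it stood at 12.4, 11.9 and 9.39 CPM at 0 h, 32.7, 39.1 and 30.3 at 6 h, 30.7, 38.7 and 24.9 at 12 h, and 32.1, 44.6 and 30.3 at 24 h. VP64_A lay above VP64_Ctrl at 0, 6 and 12 h and overlapped with it at 24 h, when the VP64_Ctrl libraries had reached the level that VP64_A held from 6 h. In TPM the groups overlapped at 12 h as well. The log2 fold change was 1.49 (standard error 0.24), 1.34 (0.23), 0.88 (0.22) and 0.21 (0.21) at 0, 6, 12 and 24 h. On the TPM scale with limma the last of these was -0.10 with a pseudocount of 1 and -0.11 with a pseudocount of 0.1. On that scale the median of all genes tested was -0.248 and -0.31 for the same comparison.

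SLFN11 differed with both guides before treatment and less clearly later. In H47_Ctrl it stood at 10.9, 12.6 and 7.83 CPM at 0 h, 15.7, 17.3 and 18.4 at 6 h, 26.9, 23.2 and 21.8 at 12 h, and 18.5, 16.8 and 21.6 at 24 h. In H47_KO it stood at 4.597, 5.91 and 5.27 CPM at 0 h, 13.4, 14.4 and 11.3 at 6 h, 22.9, 24.4 and 22.4 at 12 h, and 15.6, 7.89 and 13.3 at 24 h. The groups were apart at 0, 6 and 24 h and overlapped at 12 h. In TPM they overlapped at 24 h as well. On the log2 scale the difference was -1.004 (standard error 0.23) at 0 h, -0.40 (0.23) at 6 h, -0.04 (0.21) at 12 h and -0.59 (0.21) at 24 h, and the 12 h value was 0.05 without replicate 1 of H47_Ctrl at 12 h.

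In VP64_Ctrl SLFN11 stood at 5.79, 4.31 and 3.14 CPM at 0 h, 16.8, 16.6 and 15.1 at 6 h, 21.3, 15.7 and 13.9 at 12 h, and 17.6, 19.8 and 9.84 at 24 h. In VP64_A it stood at 7.04, 7.67 and 12.4 CPM at 0 h, 18.1, 14.5 and 12.2 at 6 h, 22.3, 15.8 and 21.8 at 12 h, and 8.62, 15.1 and 12.3 at 24 h. VP64_A lay above VP64_Ctrl at 0 h and overlapped with it at 6, 12 and 24 h. This gave a log2 fold change of 0.97 (standard error 0.28), -0.12 (0.27), 0.20 (0.26) and -0.37 (0.28) at 0, 6, 12 and 24 h. The Schlafen genes are near copies of each other in part of their sequence, and the estimated count of SLFN11 was not whole (by over 0.01) in 29 of the 48 libraries, against 2 libraries for MFAP4 and 0 for the other members, so that part of its reads may belong to other transcripts and its level is uncertain.

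PIK3CD rose strongly in all groups and differed with the guide by a steady amount in the CRISPRa cells. In H47_Ctrl it stood at 22.3, 18.5 and 19.2 CPM at 0 h, 73.0, 73.4 and 89.3 at 6 h, 114, 103 and 131 at 12 h, and 108, 111 and 106 at 24 h. In H47_KO it stood at 18.03, 14.1 and 17.1 CPM at 0 h, 70.7, 72.3 and 70.0 at 6 h, 86.7, 87.3 and 87.2 at 12 h, and 83.9, 64.6 and 74.7 at 24 h. The groups did not overlap, but at 0 h and 6 h the nearest libraries were less than 1 CPM apart. In TPM they overlapped at 0 h and at 24 h. At 24 h the highest H47_KO library (32.1 TPM) lay above all H47_Ctrl libraries (27.2 to 31.1 TPM). The log2 fold change was -0.29 (standard error 0.15) at 0 h, -0.14 (0.14) at 6 h, -0.41 (0.14) at 12 h and -0.54 (0.14) at 24 h.

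In VP64_Ctrl PIK3CD stood at 13.4, 14.4 and 16.3 CPM at 0 h, 56.0, 58.8 and 62.6 at 6 h, 62.8, 63.1 and 81.6 at 12 h, and 79.0, 68.7 and 55.5 at 24 h. In VP64_A it stood at 28.3, 30.7 and 29.3 CPM at 0 h, 114, 105 and 99.9 at 6 h, 120, 110 and 137 at 12 h, and 133, 150 and 137 at 24 h. The groups did not overlap at any time, though in TPM they did at 0 h, through replicate 3 of VP64_Ctrl (8.28 TPM). On the log2 scale the difference was 1.01 (standard error 0.16), 0.85 (0.15), 0.83 (0.15) and 1.05 (0.15) at 0, 6, 12 and 24 h.

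CPZ showed the largest activation difference of the 6 genes and changed little with time. In H47_Ctrl it stood at 28.4, 26.7 and 15.9 CPM at 0 h, 18.3, 16.5 and 20.6 at 6 h, 17.3, 22.6 and 23.9 at 12 h, and 27.98, 33.6 and 24.2 at 24 h. In H47_KO it stood at 16.1, 12.0 and 8.43 CPM at 0 h, 8.57, 13.9 and 13.6 at 6 h, 11.5, 14.5 and 13.1 at 12 h, and 18.2, 12.1 and 10.2 at 24 h. The groups overlapped at 0 h by their nearest libraries and were apart at 6, 12 and 24 h. In TPM they were apart at each time. This gave a log2 fold change of -0.99 (standard error 0.24) at 0 h, -0.63 (0.27) at 6 h, -0.71 (0.26) at 12 h and -1.07 (0.24) at 24 h.

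In VP64_Ctrl CPZ stood at 2.65, 4.89 and 4.34 CPM at 0 h, 3.15, 3.03 and 4.06 at 6 h, 2.96, 4.56 and 3.13 at 12 h, and 4.49, 1.94 and 3.45 at 24 h. In VP64_A it stood at 40.9, 42.1 and 39.9 CPM at 0 h, 31.7, 38.4 and 39.1 at 6 h, 33, 44.4 and 63.1 at 12 h, and 37.3, 32.9 and 44.4 at 24 h. The groups were far apart at each time, and the VP64_Ctrl values rest on 6 to 59 counts per library. The log2 fold change was 3.38 (standard error 0.23), 3.47 (0.28), 3.70 (0.26) and 3.45 (0.26) at 0, 6, 12 and 24 h, which is 10.4 to 13.03 times on the linear scale. With limma on log2(TPM + 1) the 0, 12 and 24 h values were 2.71, 3.10 and 2.82.

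The control cells of the arms also differed in CPZ. With all 48 libraries normalized together, the 12 H47_Ctrl libraries stood at 15.9 to 33.2 CPM and the 12 VP64_Ctrl libraries at 1.91 to 4.95, and the H47_KO libraries, at 8.34 to 18.1 CPM, lay above all VP64_Ctrl libraries. The VP64_A libraries, at 31.9 to 62.1 CPM, overlapped with H47_Ctrl. These control levels entered the choice of the gene and are given without a test. Cell population, vector and guide cannot be told apart between the arms.

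MFAP4 varied between libraries of a condition, most clearly in H47_Ctrl. In H47_Ctrl it stood at 160, 112 and 81.6 CPM at 0 h, 126, 73.0 and 104 at 6 h, 40.5, 81.1 and 92.8 at 12 h, and 96.7, 155 and 102 at 24 h. In H47_KO it stood at 104, 93.8 and 86.6 CPM at 0 h, 70.3, 73.3 and 78.4 at 6 h, 41.8, 54.6 and 72.3 at 12 h, and 67.6, 86.8 and 67.6 at 24 h. The groups overlapped at 0, 6 and 12 h and were apart at 24 h. In TPM they overlapped at 24 h too, at 56.5 to 94.2 in H47_KO and 79.5 to 119.8 in H47_Ctrl. On the log2 scale the difference was -0.32 (standard error 0.24) at 0 h, -0.45 (0.25) at 6 h, -0.36 (0.25) at 12 h and -0.67 (0.24) at 24 h. These values moved with single libraries. The 6 h value was -0.26 without replicate 1 of H47_Ctrl at 6 h. The 0 h value was -0.04 without replicate 1 and -0.54 without replicate 3 of H47_Ctrl at 0 h, and the 12 h value was -0.64 without replicate 1 and -0.13 without replicate 3 of H47_Ctrl at 12 h.

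In VP64_Ctrl MFAP4 stood at 54.7, 58.9 and 97.2 CPM at 0 h, 42.8, 53.5 and 61.4 at 6 h, 48.5, 47.97 and 44.05 at 12 h, and 53.3, 46.3 and 67.0 at 24 h. In VP64_A it stood at 106, 119 and 89.1 CPM at 0 h, 71.3, 87.7 and 102 at 6 h, 100.9, 87.7 and 72.4 at 12 h, and 125, 98.8 and 107 at 24 h. The groups overlapped at 0 h, where replicate 3 of VP64_Ctrl, the library that stood apart above, was high. They were apart at 6, 12 and 24 h. This gave a log2 fold change of 0.58 (standard error 0.19), 0.75 (0.20), 0.89 (0.20) and 0.98 (0.19) at 0, 6, 12 and 24 h. Without replicate 3 of VP64_Ctrl at 0 h the 0 h value was 0.88.

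**Figure D2:**
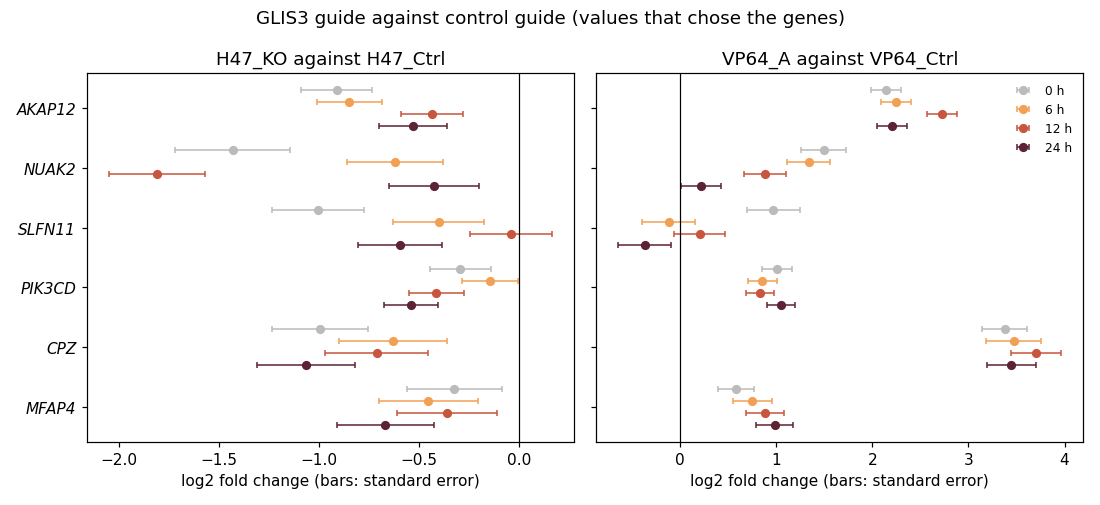
Log2 fold change of the GLIS3 guide against the control guide for each gene and time (colours), with bars of 1 standard error, in the CRISPRko arm (left) and the CRISPRa arm (right), as values that chose the genes. CPZ lies farthest right, from 3.38 to 3.70, and NUAK2 and SLFN11 move toward or past 0 at 24 h in the CRISPRa arm, to 0.21 and -0.37.

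A gene was called where its edgeR quasi-likelihood p, adjusted by Benjamini-Hochberg over all genes tested, was under 0.05. By that rule 3 members were called lower in H47_KO at 0 h (AKAP12, NUAK2 and SLFN11), where 0.128% of all genes were called lower. At 6 h 1 member was called lower (AKAP12, background 0.0456%), at 12 h 1 (NUAK2, background 0.0274%) and at 24 h 0 (background 0.073%). At 24 h 5 members had an unadjusted p under 0.05, and DESeq2 called 2, CPZ and PIK3CD. At 0 h DESeq2 also called CPZ. In VP64_A 6 members were called higher at 0 h, 5 at 6 h, 5 at 12 h and 4 at 24 h, where 4.29%, 1.86%, 2.37% and 1.99% of all genes were called higher. SLFN11 was the member left out at 6, 12 and 24 h, and NUAK2 was also left out at 24 h. The members were picked on these contrasts, so these counts, by either tool, carry no weight of their own, also beside the share of all genes.

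The response to TGFβ and IL-1β did not enter the choice and was tested in each arm with both guide groups averaged. AKAP12, NUAK2, SLFN11 and PIK3CD rose, and CPZ did not pass the test at any time. In the CRISPRko arm 4 members were called higher at 6, 12 and 24 h, where 16.7%, 19% and 12.7% of the genes tested were called higher, and 1 (MFAP4) was called lower at 12 h, where 18.9% were called lower. At 6 h and 24 h, with backgrounds of 16.1% and 9.51%, MFAP4 and CPZ were not called lower. In the CRISPRa arm 4 members were called higher at 6 h and at 12 h and 3 at 24 h, where 20.4%, 20.4% and 15.3% of the genes tested were called higher. There MFAP4 was called lower at 6 h and 12 h, with backgrounds of 18.1% and 16.4%, and not at 24 h, with a background of 10.5%. The median log2 change of the 6 members at 6, 12 and 24 h was 1.44, 1.74 and 0.94 with CRISPRko cells, against 1.27, 1.38 and 0.62 with CRISPRa cells, and that of all genes tested lay between -0.07 and 0.01 in both.

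PIK3CD had the largest rise in both arms at 12 h. In the CRISPRko arm its log2 change from 0 h was 2.04 (standard error 0.11, adjusted p = 5.6e-17 with edgeR) at 6 h, 2.47 (0.11) at 12 h and 2.31 (0.10) at 24 h. Values of the CRISPRa arm were 1.93 (0.11), 2.14 (0.11) and 2.23 (0.11), with adjusted p = 2.7e-17 at 24 h. PIK3CD stayed high to the end of the course in both arms.

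NUAK2 also held its rise. In the CRISPRko arm its log2 change was 2.02 (standard error 0.19) at 6 h, 1.83 (0.19) at 12 h and 2.19 (0.18, edgeR adjusted p = 1.8e-11) at 24 h. Those of the CRISPRa arm were 1.66 (0.17), 1.79 (0.16) and 2.28 (0.16), with adjusted p = 2.5e-13 at 24 h. The highest value of NUAK2 was at 24 h in both arms.

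SLFN11 was at its highest at 12 h in both arms. Its log2 change was 0.99 (standard error 0.16), 1.65 (0.15) and 1.05 (0.16) at 6, 12 and 24 h in the CRISPRko arm, with edgeR adjusted p = 1.8e-10 at 12 h. It was 1.30 (0.20), 1.53 (0.19) and 1.10 (0.20) in the CRISPRa arm, with adjusted p = 1.2e-07 at 12 h. Within VP64_A alone the change was 0.76 at 6 h and 0.43 at 24 h. The 0 h libraries of VP64_A were high and entered the choice of the gene, so these values are given without a test.

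AKAP12 rose and came back down. In the CRISPRko arm its log2 change was 1.90 (standard error 0.12) at 6 h, 2.26 (0.12, edgeR adjusted p = 9.2e-17) at 12 h and 0.82 (0.12, adjusted p = 3.7e-06) at 24 h. In the CRISPRa arm it was 1.23 (0.11, adjusted p = 4.1e-11) at 6 h, 1.23 (0.11) at 12 h and 0.15 (0.11, adjusted p = 0.343) at 24 h. At 24 h AKAP12 was thus still above its starting level in the CRISPRko arm, and it did not pass the test in the CRISPRa arm. There it was -0.18 with limma on log2(TPM + 1) and -0.21 on log2(TPM + 0.1), where the median of all genes tested was -0.276 and -0.346.

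CPZ changed by -0.20 (standard error 0.18), -0.03 (0.18) and 0.20 (0.17) on the log2 scale at 6, 12 and 24 h in the CRISPRko arm. In the CRISPRa arm it changed by -0.22 (0.19), 0.04 (0.18) and -0.12 (0.18), and the smallest edgeR adjusted p of the 6 values was 0.38. With limma on the TPM scale the 6 h value of the CRISPRa arm was called, at -0.56 (adjusted p = 0.0238, pseudocount 1) and -0.68 (adjusted p = 0.0204, pseudocount 0.1). On that scale the median of all genes tested was -0.43 and -0.55 for the same comparison.

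MFAP4 fell by 0.74 (standard error 0.17, edgeR adjusted p = 0.00087) on the log2 scale at 12 h in the CRISPRko arm, and its 6 h and 24 h values of -0.29 (0.17) and -0.19 (0.17) were not called. In the CRISPRa arm it fell by 0.35 (0.14, adjusted p = 0.042) at 6 h and by 0.42 (0.14, adjusted p = 0.0147) at 12 h, and stood at -0.12 (0.13) at 24 h. The CRISPRa call at 6 h was lost when any 1 of 7 libraries was left out, with adjusted p up to 0.15. These were replicates 1 and 2 of VP64_A at 0 h and at 6 h, replicate 3 of VP64_Ctrl at 0 h and replicates 1 and 2 of VP64_Ctrl at 6 h. The 12 h call was lost without replicate 3 of VP64_Ctrl at 0 h, at -0.30 (adjusted p = 0.0629).

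**Figure D3:**
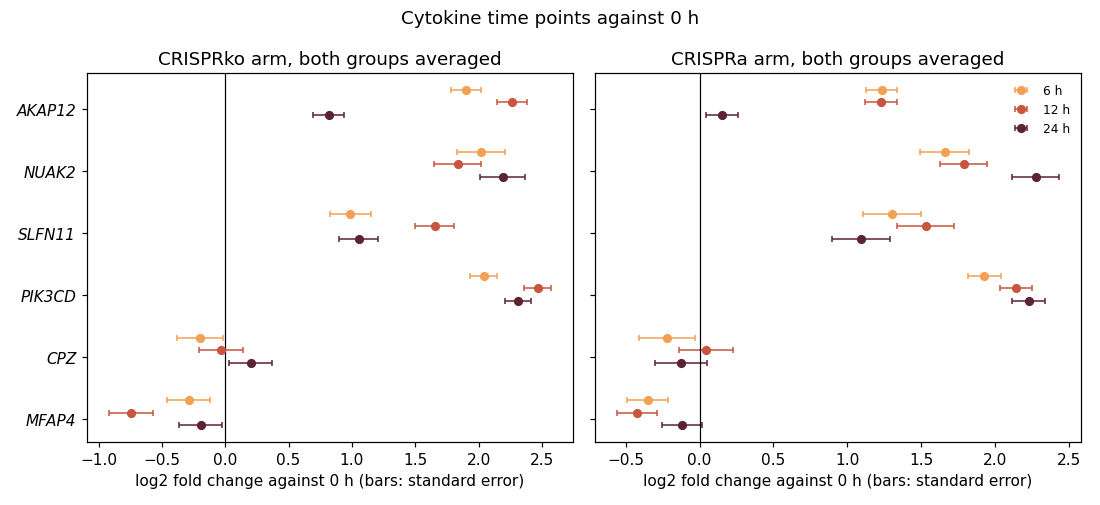
Log2 fold change against 0 h at 6, 12 and 24 h (colours), averaged over both guide groups, with bars of 1 standard error, in the CRISPRko arm (left) and the CRISPRa arm (right). PIK3CD, NUAK2 and SLFN11 stay at 0.99 or more at all times in both arms, AKAP12 falls back to 0.82 and 0.15 by 24 h, and CPZ and MFAP4 lie at or below 0.20.

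The levels of the arms were set side by side in a fit of all 48 libraries. The average of an arm holds the VP64_A or H47_KO libraries on which the genes were chosen, so these values are given without a test. Of 11422 genes 15.4% were called higher and 15.5% lower in the CRISPRa arm. Averaged over guides and times, the log2 level in the CRISPRa arm minus that in the CRISPRko arm was 0.79 (standard error 0.05) for AKAP12 and 0.84 (0.08) for NUAK2. The control cells did not show this excess. AKAP12 had a median of 27.5 CPM over the 12 VP64_Ctrl libraries and 58.5 over the 12 H47_Ctrl libraries, against 149 in VP64_A and 33.1 in H47_KO. NUAK2 had a median of 14.7 CPM in VP64_Ctrl and 17.3 in H47_Ctrl, against 30.6 in VP64_A and 9.39 in H47_KO. For CPZ the log2 difference was -0.49 (0.09), while its plain mean was the higher in the CRISPRa arm, at 22.03 ± 19.7 CPM (SD, n = 24) against 17.8 ± 6.73. The differences were -0.23 (0.08) for MFAP4, -0.18 (0.09) for SLFN11 and 0.06 (0.05) for PIK3CD.

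The change with time was also compared between the arms. AKAP12 was the member called, lower in the CRISPRa arm at 6, 12 and 24 h, where 0.149%, 0.455% and 0.411% of all genes were called lower. Its rise was smaller in the CRISPRa arm by 0.69 (standard error 0.15, edgeR adjusted p = 0.021) at 6 h, by 1.06 (0.15, adjusted p = 1.2e-05) at 12 h and by 0.67 (0.16, adjusted p = 0.009) at 24 h, all on the log2 scale. The 6 h call was lost when any 1 of 5 libraries was left out, with adjusted p up to 0.0718. These were replicate 1 of H47_Ctrl at 0 h, replicate 2 of H47_KO at 0 h and at 6 h, replicate 3 of VP64_A at 6 h and replicate 2 of VP64_Ctrl at 6 h. The 24 h call was lost without replicate 1 of H47_Ctrl at 24 h, at -0.54 (adjusted p = 0.065), and the 12 h call held in each case. For the other 5 members the differences at the 3 times lay between -0.38 and 0.30, with standard errors of 0.14 to 0.27 and adjusted p of 0.31 or more. The differences of NUAK2, SLFN11, CPZ and MFAP4 have standard errors too wide to show that the arms respond alike. A like response is not shown for PIK3CD either. Its difference at 12 h was -0.34 (standard error 0.14, edgeR unadjusted p = 0.0172, adjusted p = 0.313).

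Lists of genes with related roles were set beside each member, in all 102 genes of which 78 were tested in each arm. In H47_KO 0 of the 78 were called by edgeR at 0, 6, 12 and 24 h, where 8, 9, 7 and 19 of them had an unadjusted p under 0.05. The background of higher calls was 0.173%, 0.274%, 0.0547% and 0.137% at these times, and that of lower calls was 0.128%, 0.0456%, 0.0274% and 0.073%. With backgrounds this low, 0 calls among 78 genes do not show that the related genes were unaffected. The share of all genes with an unadjusted p under 0.05 is not given, so counts by that cut have no background here. DESeq2 called 2 of them at 12 h and 0 at the other times. These were IFIT2 and FBLN2, which are named here after their values were seen. In VP64_A 5, 4, 5 and 3 of the 78 were called higher and 8, 3, 2 and 3 lower at 0, 6, 12 and 24 h, where 5.12%, 1.9%, 1.94% and 2.13% of all genes were called lower. The median log2 difference of the 78 in VP64_A lay between -0.19 and -0.07, beside -0.02 to 0.01 for all genes tested.

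Beside MFAP4, of 17 elastic fibre and microfibril genes tested in the CRISPRa arm 3, 3, 4 and 3 were called higher and 1, 1, 0 and 1 lower in VP64_A at 0, 6, 12 and 24 h. Of all genes tested 4.29%, 1.86%, 2.37% and 1.99% were called higher and 5.12%, 1.9%, 1.94% and 2.13% lower. These backgrounds also stand beside the VP64_A calls in the other lists below. LTBP1, which binds latent TGFβ to the matrix, stood at 48.7 ± 9.30 CPM (SD, n = 3) in VP64_A and 11.5 ± 2.95 in VP64_Ctrl at 0 h, a log2 difference of 2.10 (standard error 0.20, edgeR adjusted p = 4.7e-09). It was called higher at all 4 times, with log2 differences of 1.66 to 2.10. In H47_KO its log2 difference was -0.79 (0.20) at 6 h, with an adjusted p of 0.071. FBN1, the main microfibril protein, was at 543 ± 77.0 CPM in VP64_A and 259 ± 54.7 in VP64_Ctrl at 0 h, with log2 differences of 0.82 to 1.07 at the 4 times, and was near 0 in H47_KO, from -0.08 to 0.16. MFAP5 was called higher at 0 h and 12 h, by 1.21 (0.32) and 1.97 (0.38), and it passed the filter in the CRISPRa arm only.

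Beside CPZ, 3 of the 12 listed carboxypeptidases were tested in the CRISPRa arm. CPA4 was called higher in VP64_A at 0, 6 and 12 h, at 38.6 ± 3.40 CPM against 10.4 ± 0.384 at 0 h, a log2 difference of 1.89 (standard error 0.25, edgeR adjusted p = 2.9e-06). Unlike CPZ, CPA4 was lower at 24 h than at 0 h in all 4 groups, and in VP64_A it stood at 3.70 ± 2.13 CPM by then.

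Beside AKAP12, in a list of genes of protein kinase A anchoring and signalling, AKAP11, another anchoring protein, was called lower in VP64_A at 0 h, at -1.01 (standard error 0.33, edgeR adjusted p = 0.0497). At 6, 12 and 24 h its log2 difference lay between -0.42 and -0.18 and was not called, and in H47_KO it lay between -0.36 and 0.65 and was not called.

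Beside SLFN11, the Schlafen and interferon-stimulated list had more lower than higher calls in VP64_A. At 0 h 1 of 16 genes tested was called higher and 4 lower, with backgrounds of 4.29% and 5.12%. At 6, 12 and 24 h 1 was called lower each time, with backgrounds of 1.9%, 1.94% and 2.13%. The median log2 difference of the list was -0.49, -0.22, -0.47 and 0.08 at 0, 6, 12 and 24 h. IRF1, a transcription factor of the interferon response, was 0.90 (standard error 0.24) higher on the log2 scale at 0 h and 0.70 (0.20) lower at 24 h, with edgeR adjusted p of 0.0131 and 0.0439. OAS3, which senses double-stranded RNA, was lower at 0 h, at -1.54 (0.27), and MX1, an antiviral GTPase, was lower at 12 h, at -1.33 (0.30).

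Beside PIK3CD, edgeR called 1 of 13 PI 3-kinase genes tested in the CRISPRa arm, INPP4B, and DESeq2 called 2 at 0 h, INPP4B and PIK3R3, the latter named after its values were seen. INPP4B, a lipid phosphatase that opposes PI 3-kinase signalling, was at 17.1 ± 0.732 CPM in VP64_A and 39.6 ± 12.2 in VP64_Ctrl at 0 h (log2 difference -1.20, standard error 0.21, edgeR adjusted p = 0.00019). At 6, 12 and 24 h its log2 difference lay between -0.42 and -0.15 and was not called. Beside NUAK2, 0 of the 13 LKB1 and AMPK-related genes tested in the CRISPRa arm were called by edgeR or by DESeq2, and over the 4 times 3 values had an unadjusted p under 0.05.

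The genes most like each member over the 16 condition means were found by Pearson correlation of log2 CPM, with each arm centred on its own mean, among 11421 other genes. These correlations describe 16 points that share libraries, guides and times. NUAK2 was most like another member, PIK3CD (r = 0.91), followed by LACTB (0.88) and C8orf4 (0.87). PIK3CD was most like the metallothionein genes MT1X (0.96) and MT2A (0.96) and GLIPR2 (0.95). SLFN11 was most like UBA6, RECQL and MYH9 (0.96, 0.95 and 0.95), and AKAP12 was most like SLC7A5, TSHZ3 and COL5A1 (0.90 each). CPZ was most like CLU (0.99), PRPS1 (0.98) and MEGF6 (0.97). MFAP4 was most like SCD5 (0.92), RECK (0.89) and LOC730101 (0.88). Between the members r ran from -0.31 for SLFN11 with MFAP4 to 0.91 for NUAK2 with PIK3CD, and CPZ went with MFAP4 (0.78) and with AKAP12 (0.73).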

How the data were processed

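Poly(A) RNA of 48 fibroblast libraries was sequenced on a NextSeq, and the authors used Trim Galore for trimming, SortMeRNA against ribosomal RNA, STAR for alignment to GRCh38 and Salmon for quantification, which gives a read that fits several transcripts in parts to each. The authors deposited estimated counts per gene, of which 6.38% were not whole, and TPM, which are scaled to transcript length and to a fixed library total. No version was given in the sources used here. The estimated counts were rounded to whole numbers. Genes passing filterByExpr (minimum count 10, minimum total 15) were scaled by TMM (factors 0.681 to 1.84) and tested with the quasi-likelihood test of edgeR 4.0.16 in R 4.3.3, two-sided, with Benjamini-Hochberg adjustment over all genes tested and calls under 0.05. Each arm was fitted with its 24 libraries in 8 groups, and the arms were compared in a fit of 48 libraries in 16 groups. Standard errors follow from the F statistic. Normalized CPM use the TMM-scaled library sizes, and correlations use log2 CPM with a prior count of 2. The scripts were tested on simulated data.

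The 6 genes and the lists of related genes were chosen with earlier results of these data known. From each related list the text names at most the 3 genes called in most contrasts, taking the smaller p where counts tie. Some items are not reported here. For likeness it names the 3 genes of highest correlation. No pair of the 48 pairs of libraries within a condition was identical (smallest chi-square per degree of freedom 3.80). Alternatives were DESeq2 1.42.0, edgeR scaled with DESeq2 size factors, a fit with all genes kept, limma 3.58.1 with TPM pseudocounts of 1 and 0.1 before taking log2, the replicate number as a block, fits of fewer or more libraries, each guide group alone and leaving out each library. Depth limits low values such as GLIS3 in H47_KO, and TPM values carry no depth. Positions are from GENCODE on GRCh38 and start site windows from RefSeq GRCh38.p14.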

Additional observations from a re-analysis of the deposited data

Results flagged for a closer look

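The change of AKAP12 with TGFβ and IL-1β differed between the CRISPRa and the CRISPRko arm by the test of that difference. Averaged over both guide groups of each arm, the log2 change from 0 h in the CRISPRa arm minus that in the CRISPRko arm came to -0.69, -1.06 and -0.67 at 6, 12 and 24 h, with edgeR adjusted p of 0.021, 1.2e-05 and 0.00899. The 12 h value kept its call without any single library, between -1.12 and -1.02. The 6 h call was lost without any 1 of 5 libraries, named above, with adjusted p up to 0.0718, and the 24 h call was lost without replicate 1 of H47_Ctrl at 24 h (-0.54, adjusted p = 0.065). With limma on log2(TPM + 1) the 6 h and 24 h values were -0.70 and -0.76 and were not called. Arm, cell population, vector and any batch cannot be told apart in this difference.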

How the results depend on the processing

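Of 504 values of the 6 genes in the time and arm comparisons under alternatives other than leaving out a library, 473 kept direction and side of the threshold, 13 lost their call, 2 gained one and 16 changed sign, none of them a called value. The TPM scale moved the median of all genes by up to -0.43 (pseudocount 1) and -0.55 (pseudocount 0.1) in the time comparisons, both at 6 h in the CRISPRa arm, and -0.27 and -0.35 at 6 h in the CRISPRko arm. For H47_KO against H47_Ctrl at 24 h that median stood at 0.299 and 0.355. The TPM overlaps of AKAP12, SLFN11, PIK3CD and MFAP4 at 24 h given above are on that scale. The cause of the changes below was not tested.

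Of the 16 sign changes, limma on TPM with pseudocounts of 1 and 0.1 gave, in the CRISPRa arm, -0.34 and -0.43 for CPZ at 12 h and -0.18 and -0.21 for AKAP12 at 24 h. It gave -0.032 and -0.028 for the arm level of PIK3CD. For the difference between arms in the change with time it gave -0.16 and -0.23 for CPZ at 12 h, -0.17 and -0.21 for SLFN11 at 24 h, -0.24 and -0.24 for MFAP4 at 24 h, and -0.14 for NUAK2 at 24 h with the smaller pseudocount. Single guide groups gave 0.11 for CPZ at 12 h in H47_KO, -0.12 for CPZ at 12 h in VP64_Ctrl and 0.079 for MFAP4 at 24 h in VP64_A.

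Members called at 6 h in the CRISPRa arm were 3 in VP64_A alone, whose libraries entered the choice of the genes. Members called for the difference between arms were 0 at 6 h and 0 at 24 h on both TPM scales. Related genes called in H47_KO at 12 h were 2 by DESeq2 and 2 with only the libraries compared, and without the filter 3 at 6 h, 3 at 12 h and 4 at 24 h. In VP64_A they were 11 at 12 h without the filter, 3 at 6 h and 4 at 12 h on log2(TPM + 1), and 3 and 2 on log2(TPM + 0.1).

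Leaving out each library gave, at 12 h, -0.13 to 0.090 for CPZ in the CRISPRko arm and -0.10 to 0.14 in the CRISPRa arm, and -0.22 to 0.0069 for MFAP4 at 24 h in the CRISPRa arm. For the difference between arms it gave -0.17 to 0.061 for CPZ at 6 h and -0.078 to 0.16 at 12 h, -0.24 to 0.050 for MFAP4 at 6 h and -0.095 to 0.20 at 24 h, -0.24 to 0.083 for NUAK2 at 12 h and -0.10 to 0.22 at 24 h, and -0.079 to 0.15 for SLFN11 at 24 h. The members called for it ranged from 0 to 1 at 6 h and at 24 h. Related genes called ranged from 0 to 1, 0 to 1 and 0 to 2 in H47_KO at 6, 12 and 24 h, and from 7 to 17, 4 to 9, 4 to 10 and 3 to 7 in VP64_A at 0, 6, 12 and 24 h.

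Deviations of same-numbered libraries from their condition means correlated from -0.18 to 0.15 in the CRISPRko arm and from -0.13 to 0.19 in the CRISPRa arm. The medians were 0.00856 and 0.00844, and 6 and 7 of 84 pairs were over 0.1. The replicate numbers thus showed little pairing. Such correlations cannot settle whether libraries shared a culture or day, which no label tells. With the replicate number as a block, related genes called in VP64_A at 0 h were 17 in place of 13, and no call of a member changed.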
